A study of Mus musculus with 8 samples.

Results

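Stab1, Stab2, Mrc1 and Clec4g encode receptors with which cells of the liver sinusoid take up material from the blood. Their transcripts were examined in liver macrophages of C57BL/6 mice, a common inbred strain, kept on a western diet (WD, 4 libraries) or a normal diet (ND, 4 libraries), with 4 mice per diet in the series design. All 4 genes were found by symbol among the 2386 genes of the authors' deposited table, the single table used here. They were picked by name with their fold changes in this table already known, so those values are given as a description and nothing was tested on them. The table carries 1 set of values per gene for the whole comparison and no value for any single library, so depth per library is unknown. Errors are therefore the standard errors (SE) that the authors gave for the fold changes, or are computed from these, and the effect of leaving out 1 library cannot be shown. The table's heading and name write its groups as WDV and NDV. No source used here says what V means, and WDV was read as the western diet and NDV as the normal diet. The composition and length of the western diet, the age and sex of the mice and the way macrophages were isolated are not known from the labels.

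The sinusoids are the capillaries of the liver, lined by a fenestrated endothelium with resident macrophages, the Kupffer cells, lodged in it. Sinusoidal endothelial cells bind waste macromolecules such as hyaluronan, collagen fragments, modified lipoproteins and glycoproteins with exposed mannose, internalise them through clathrin-coated pits and degrade them in lysosomes. Stabilin-1 and stabilin-2, the products of Stab1 and Stab2, are large class H scavenger receptors, and stabilin-2 is the main clearance receptor for circulating hyaluronan. The mannose receptor, encoded by Mrc1 and also known as CD206, is a recycling C-type lectin. Clec4g encodes LSECtin, a small C-type lectin named after the sinusoidal endothelium. In mouse liver Stab2 and Clec4g are known as endothelial genes, whereas Stab1 and Mrc1 are known from both sinusoidal endothelium and macrophages.

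The genes lie on separate chromosomes and differ widely in size, which matters for comparing their read counts. Positions are those of GENCODE M21 on GRCm38, the assembly also called mm10 that the submitters' processing notes name. Stab1 (ENSMUSG00000042286) occupies chr14:31139013-31168641 on the minus strand, and its longest coding transcript has 69 exons and encodes 2571 residues. Stab2 (ENSMUSG00000035459) occupies chr10:86841198-87008025 on the minus strand, also with 69 exons, and encodes 2559 residues. Mrc1 (ENSMUSG00000026712) occupies chr2:14229392-14332057 on the plus strand, with 30 exons and 1456 residues. Clec4g (ENSMUSG00000074491) occupies chr8:3707064-3720651 on the minus strand. Its longest coding transcript covers only chr8:3716064-3720651, with 9 exons and 294 residues.

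The 250 bases before the RefSeq start of each gene are shown because the 4 transcripts moved in the same direction and these windows are where their promoters can be compared. They are from RefSeq's GRCm38.p6 annotation and read 5′ to 3′ along the gene's own strand. Capitals mark each match to GGAAG, a form of the ETS factor motif, or to its reverse complement. The windows are chr14:31168642-31168891 for Stab1, chr10:87007943-87008192 for Stab2, chr2:14229164-14229413 for Mrc1 and chr8:3720652-3720901 for Clec4g.
Stab1: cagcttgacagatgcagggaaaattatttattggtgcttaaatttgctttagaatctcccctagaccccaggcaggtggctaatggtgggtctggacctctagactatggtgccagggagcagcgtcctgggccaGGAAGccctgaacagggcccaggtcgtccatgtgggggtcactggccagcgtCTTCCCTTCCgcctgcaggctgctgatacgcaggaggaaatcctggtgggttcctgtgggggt
Stab2: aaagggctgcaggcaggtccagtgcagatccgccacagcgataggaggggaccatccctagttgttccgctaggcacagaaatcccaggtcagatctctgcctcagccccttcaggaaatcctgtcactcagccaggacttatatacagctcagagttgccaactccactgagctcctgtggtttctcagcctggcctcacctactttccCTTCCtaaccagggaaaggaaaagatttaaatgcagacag
Mrc1: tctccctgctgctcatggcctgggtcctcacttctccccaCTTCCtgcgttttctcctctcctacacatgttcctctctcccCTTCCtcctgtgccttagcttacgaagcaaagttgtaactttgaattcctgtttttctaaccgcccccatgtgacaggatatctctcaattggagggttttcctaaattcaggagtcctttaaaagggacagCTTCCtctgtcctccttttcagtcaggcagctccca
Clec4g: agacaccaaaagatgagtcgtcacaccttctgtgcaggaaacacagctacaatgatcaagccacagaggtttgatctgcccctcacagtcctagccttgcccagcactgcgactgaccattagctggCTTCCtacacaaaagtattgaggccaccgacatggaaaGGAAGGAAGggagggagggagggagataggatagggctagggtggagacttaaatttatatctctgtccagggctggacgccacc

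All 4 windows held GGAAG or its reverse complement, with 3 matches each for Stab1, Mrc1 and Clec4g and 1 for Stab2. Of all 32851 RefSeq promoter windows of the same length, 64.1% hold GGAAG on either strand, so a match is common. Other forms of the ETS motif, such as GGAAA, which the Stab2 window also holds, were not searched. The match counts therefore hold for GGAAG only. None of the 4 windows held GATAA, a form of the GATA factor motif, which 22.6% of all windows hold. Other forms were not searched, such as GATAG, which the Stab2 and Clec4g windows hold. The hexamer TGCTGA, part of the MAF recognition element, was found once, 43 to 38 bases before the start of Stab1, against 16.1% of all windows. CACCC, bound by KLF factors, was found once and only for Clec4g, against 52.0% of all windows. TATAAA, the TATA box sequence, was searched on both strands and also matched only for Clec4g, against 12.4% of all windows. That match was the reverse complement, 31 to 26 bases before the start of Clec4g. No window held TATAAA in the gene's own orientation. GENCODE places the start of Stab2 83 bases and that of Mrc1 22 bases further upstream than RefSeq does, while for Stab1 and Clec4g the starts coincide. These matches describe letters in short windows, and no binding was measured.

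All 4 receptor transcripts were lower in WD than in ND, by very unequal amounts. The fall was 11.6-fold for Clec4g, 6.53-fold for Stab2, 3.21-fold for Stab1 and 2.18-fold for Mrc1 in the authors' deposited table. Each passed an adjusted p below 0.05, the limit used here for a call. Genes called lower and more than 2-fold changed make up 8.35% of the 17531 genes that entered the authors' p adjustment. Those 17531 are the tested genes of the text below. Because the 4 genes were picked from this contrast, nothing is read from that share. The table lists only genes beyond 2-fold, so a fall of at least that size was a condition of being listed.

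Stab1 had a mean normalized count of 6717 over the libraries and a log2 fold change of -1.68 ± 0.14 (SE), with an adjusted p of 2.45e-29, in the authors' deposited table. The 95% interval of its fall runs from 2.64-fold to 3.91-fold. Stab2, its closest relative, had a lower mean count of 5758 and a larger change of -2.71 ± 0.26 (adjusted p 3.11e-23) in the authors' deposited table, an interval from 4.58-fold to 9.33-fold. Mrc1 was the most abundant of the 4 by count and changed least. Its mean count in the authors' deposited table was 8338, and its log2 fold change was -1.12 ± 0.15 (adjusted p 3.11e-12). The interval for Mrc1, from 1.77-fold to 2.68-fold, includes 2-fold. Clec4g had the smallest mean count, 4553, and the largest and least precise fall, at -3.54 ± 0.39 (adjusted p 7.59e-18) in the authors' deposited table. Its interval runs from 6.82-fold to 19.8-fold.

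**Figure D1:**
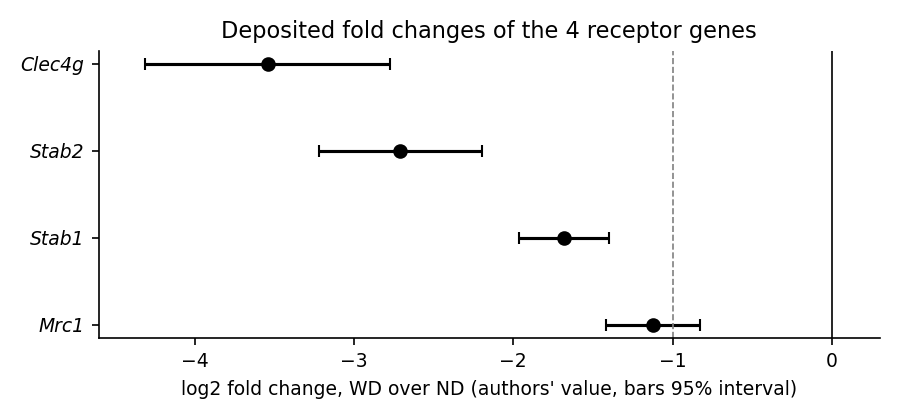
Log2 fold change, WD over ND, of the 4 receptor genes in the authors' deposited table, with bars for the 95% interval from its SE and a dashed line at 2-fold lower. Clec4g (-3.54) lies farthest from 0, Mrc1 (-1.12) nearest, and only the bar of Mrc1 crosses the dashed line.

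The level in each diet group can be worked out from the mean count and the fold change, if the mean covers 4 libraries of each diet and the fold change was not shrunken. Computed in this way, Stab1 averaged 3189 normalized counts in WD and 10244 in ND. Stab2 averaged 1528 in WD and 9987 in ND. For Mrc1 the averages were 5248 in WD and 11428 in ND, and for Clec4g 721 in WD and 8385 in ND. In ND the 4 counts, not corrected for transcript length, thus lay close together, and in WD they were spread out. As a share of the ND level, WD kept 45.9% of Mrc1, 31.1% of Stab1, 15.3% of Stab2 and 8.60% of Clec4g.

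Read counts grow with transcript length, so levels were compared between genes per kilobase of the longest coding transcript. On that scale Clec4g stood at 580 in WD and 6751 in ND, and Mrc1 at 977 in WD and 2127 in ND. Stab1 stood at 399 in WD and 1281 in ND, and Stab2 at 186 in WD and 1214 in ND, again as counts per kilobase. Clec4g was therefore the highest of the 4 in ND and stood below Mrc1 in WD. Stab1 and Stab2, nearly level in ND, were apart in WD. The 4 levels per kilobase were thus spread out in ND as well as in WD. With the merged exons of all transcripts as the length, which is about double for Clec4g, Clec4g came to 293 per kilobase in WD, below the 310 of Stab1, and stayed highest in ND at 3406. No error is attached to these levels, since the table gives one for the fold change only.

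**Figure D2:**
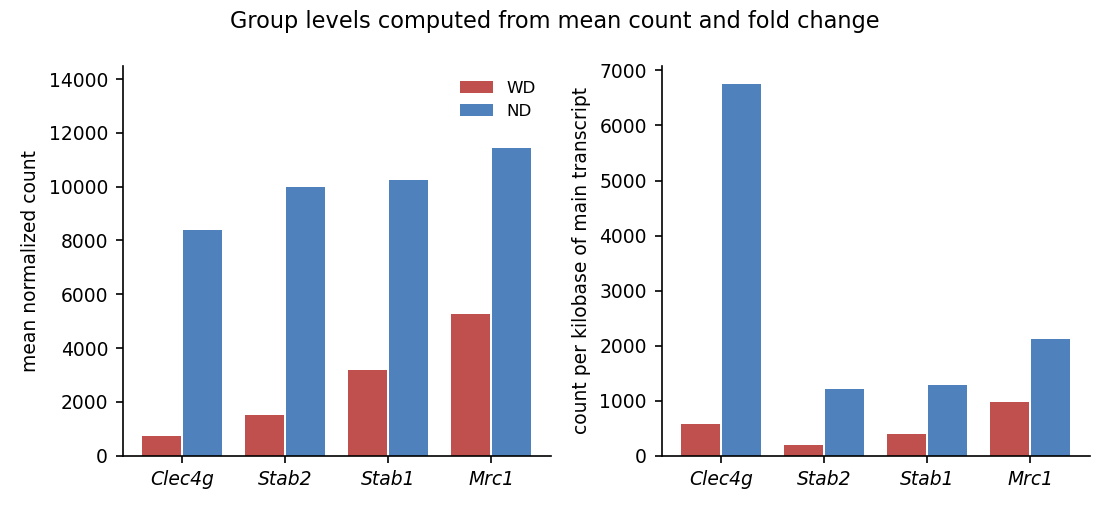
Group levels computed from the deposited mean count and fold change, as mean normalized count (left) and as count per kilobase of the longest coding transcript (right), WD in red and ND in blue, with no error bars because no value per library is given. On the left, counts are similar across genes in ND (8385 to 11428) and range from 721 (Clec4g) to 5248 (Mrc1) in WD. On the right, levels range from 1214 (Stab2) to 6751 (Clec4g) in ND and from 186 (Stab2) to 977 (Mrc1) in WD.

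The unequal falls were compared pair by pair. Since all 4 genes were read from the same libraries, their errors may be correlated, and each interval uses the sum of both SEs, the widest that any correlation allows. Of the 6 pairs, 4 had a 95% interval that lay wholly below 0 on the log2 scale. Clec4g fell more than Stab1 by a log2 difference of -1.86 (interval -2.91 to -0.80) and more than Mrc1 by -2.42 (-3.48 to -1.35). Stab2 fell more than Stab1 by -1.02 (-1.82 to -0.23) and more than Mrc1 by -1.59 (-2.40 to -0.77). The differences of Clec4g from Stab2, -0.83 (-2.11 to 0.45), and of Stab1 from Mrc1, -0.56 (-1.14 to 0.02), had intervals that include 0. With independent errors the interval for Stab1 against Mrc1 no longer includes 0. As the genes were chosen with these fold changes known, the intervals describe precision and are not tests.

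**Figure D3:**
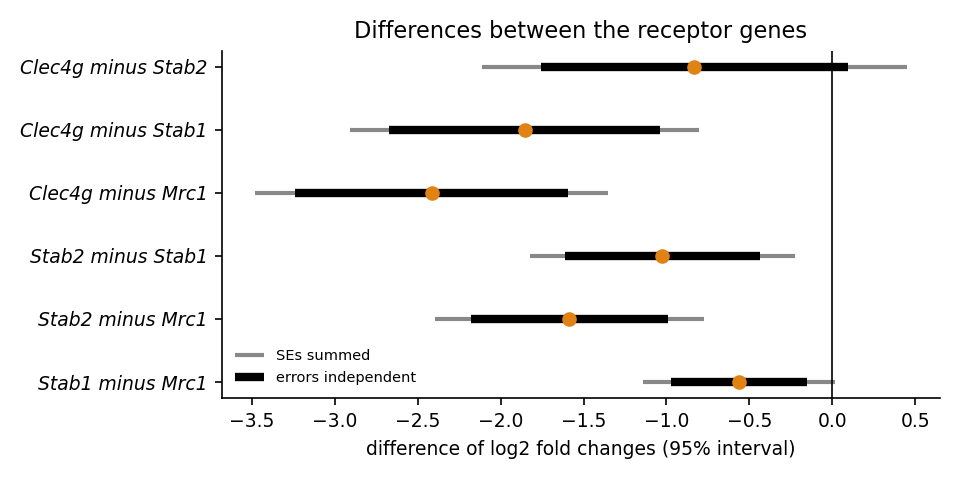
Differences of log2 fold change between the receptor genes (orange points), the first named minus the second, with 95% intervals from summed SEs (grey) and from independent errors (black). Stab2 minus Stab1 (-1.02) and all 3 larger differences stay below 0, whereas Clec4g minus Stab2 (-0.83) crosses 0 with either error.

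The SEs are far larger than read counting alone would give. From the counts of Clec4g the counting part of the SE would be 0.028 on the log2 scale, against the deposited 0.39 in the authors' deposited table. In a negative binomial model the rest is variation between libraries of one diet. It corresponds to a coefficient of variation of 38.4% for Clec4g and 25.6% for Stab2, against 14.8% for Mrc1 and 14.1% for Stab1. The 2 genes with the larger falls thus also varied more between libraries. These figures take the size factors as equal and inherit any smoothing of the spread across genes in the authors' model.

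Among called genes of similar abundance the 4 receptors took different places. Of 31 other lower genes with a mean count within 2-fold of that of Clec4g, 2 fell more. For Stab2, 9 of 24 such genes fell more, for Stab1 13 of 20 and for Mrc1 13 of 15. The SE of Stab1 was exceeded by 17 of its 20 genes and that of Clec4g by 6 of its 31.

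The genes most like each receptor, by the smallest difference in log2 fold change among called lower genes with a mean count within 2-fold, were named by rule; likeness here rests on this 1 comparison and on no pattern across libraries. For Clec4g they were Kdr, the main VEGF receptor gene of endothelium (-3.59 ± 0.42), the water channel gene Aqp1 (-3.35 ± 0.37) and Oit3 (-3.31 ± 0.43) in the authors' deposited table. For Stab2 they were the nuclease gene Dnase1l3 (-2.58 ± 0.23), the adhesion receptor gene Adgrf5 (-2.86 ± 0.42) and Eng, a TGF-beta co-receptor gene (-2.88 ± 0.25), in the authors' deposited table. Those nearest Stab1 were the cytokine feedback gene Socs3 (-1.48 ± 0.16), the inhibitory Fc receptor gene Fcgr2b (-1.38 ± 0.091) and the lysosomal protease gene Ctsl (-1.31 ± 0.19) in the authors' deposited table. Those nearest Mrc1 were the arginase gene Arg1 (-1.21 ± 0.25), the metallothionein gene Mt1 (-1.03 ± 0.19) and the kinase gene Jak1 (-1.02 ± 0.11) in the authors' deposited table. Kdr, Oit3, Dnase1l3 and Eng are among the sinusoidal endothelial markers described next, as is Fcgr2b, named for Stab1. With mean counts within 1.5-fold, the 3 genes nearest Mrc1 were instead Ctsl, Fcgr2b and Stab1.

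Other genes on a list of sinusoidal endothelial markers were lower as well. Some of them, such as Pecam1, Cdh5 and Tie1, are genes of endothelium in general and do not mark sinusoids alone. The list was drawn up with earlier results of this table known, so its count is no independent evidence. All 24 markers besides the 4 genes were called lower, with a median log2 fold change of -3.09, against -2.10 for all genes called lower, in the authors' deposited table. Cldn5, the endothelial tight junction gene, fell most (-4.12 ± 0.20) in the authors' deposited table. Next to Cldn5, the smallest p-values in the authors' deposited table included those of the secreted factor gene Egfl7 (-3.50 ± 0.20) and Fam167b (-3.85 ± 0.26). Fcgr2b, which clears immune complexes in the sinusoid and is also expressed by macrophages, fell least, at -1.38. Set into this order, Clec4g fell less than 5 of the 24 markers and Stab2 less than 16. Stab1 fell less than 20 of them, and Mrc1 less than all 24. Lyve1 (-1.49 ± 0.24) and Pecam1 (-1.71 ± 0.20), also lower in the authors' deposited table, lay on either side of Stab1. The variation between libraries, computed as above, was 40.0% to 43.7% for 9 markers, among them Kdr, Ptprb and Oit3, and 8.83% to 30.8% for the other 15. Clec4g lay between these groups and Stab2 within the lower one.

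**Figure D4:**
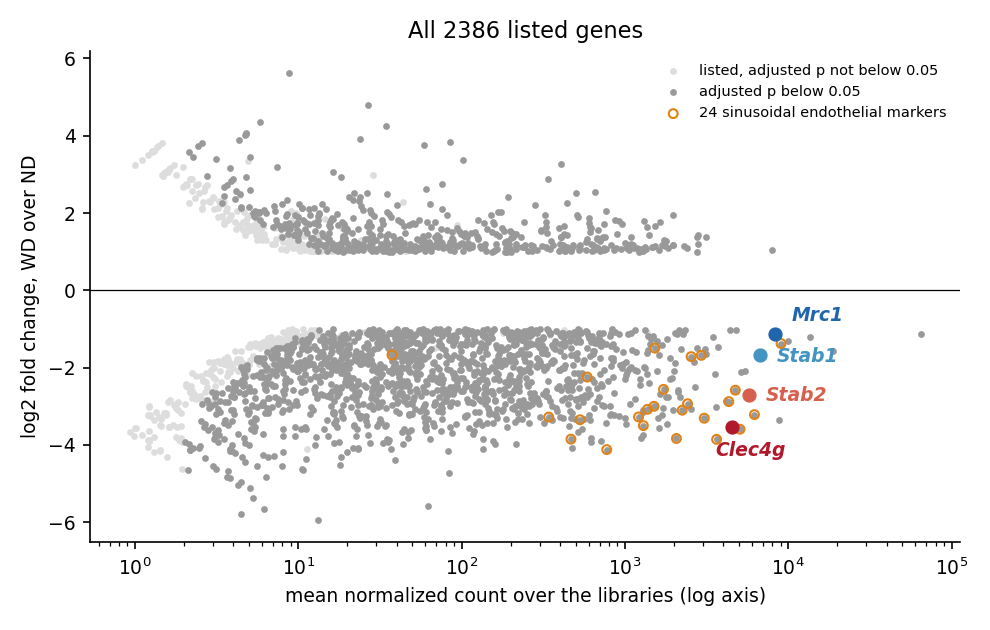
Log2 fold change, WD over ND, against mean normalized count (log axis) for the 2386 listed genes, with genes of adjusted p below 0.05 in dark grey, the 24 sinusoidal endothelial markers circled in orange and the 4 receptors in colour. The receptors lie at the abundant end, from 4553 (Clec4g) to 8338 (Mrc1) counts, and the band between -1 and 1 is empty because the table was filtered on fold change.

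Because these are bulk libraries, fewer endothelial cells and less receptor RNA per cell cannot be told apart. The macrophage label could not be checked on levels, since the table holds changed genes only. None of 20 Kupffer cell markers, among them Adgre1, Clec4f, Timd4 and Cd163, was listed, and no statement is made on whether they were measured or missed a limit. Endothelial genes were among the abundant transcripts, since the authors' deposited table gives Kdr a mean count of 5064 and Ptprb one of 6209, within the range of the receptors. The part of endothelial content in the fall of each receptor was not tested.

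Of 18 genes for stabilin ligands, stabilin adaptors and the handling of hyaluronan, 5 were called lower (27.8%, beside 8.35% of all tested genes), none higher and 13 were not listed. Of these 5, Hyal2, Lyve1 and Has1 act on or bind hyaluronan, and Sparc and Reln encode stabilin ligands. Hyal2, a hyaluronidase gene, fell most (-3.12 ± 0.19), followed by Sparc, a matrix protein that stabilin-1 takes up (-2.58 ± 0.20), in the authors' deposited table. Reln, the reelin gene, stood at -2.05 ± 0.54, the hyaluronan receptor gene Lyve1 at -1.49 ± 0.24 and the hyaluronan synthase gene Has1 at -1.44 ± 0.43 in the authors' deposited table. Has1 had a mean count of 16.1 there, far under the receptors. The other ligand genes Gdf15, Tgfbi and Postn and the adaptor gene Gulp1 were not listed. This list and those that follow were likewise drawn up with earlier results of these data known, so their shares are no independent evidence. Each share counts every gene of its list, although genes that were not listed may not have been tested.

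The few listed relatives of Mrc1 and Clec4g changed in both directions. Of the other 3 genes of the mannose receptor family, 1 was called lower and 1 higher (33.3% each, beside 8.35% and 3% of all tested genes). Pla2r1, a phospholipase A2 receptor gene, fell (-2.96 ± 0.25) and Ly75, the dendritic cell receptor gene DEC-205, rose (1.07 ± 0.27) in the authors' deposited table. Mrc2 was missing from it. Of 17 Clec4 and Cd209 lectin genes, 1 was called lower (5.88%, beside 8.35% of all tested genes) and 1 higher (5.88%, beside 3%). With counts this small, nothing is read from them about either family. Cd209b fell (-1.63 ± 0.30) and Cd209a, a dendritic cell lectin gene, rose (1.38 ± 0.23) in the authors' deposited table. The other 15 were missing from it. Every Clec4 gene of that list, Clec4a1 and Clec4f among them, belongs to those 15. Cd209a and Cd209b lie within 250 kb of Clec4g on chromosome 8, where 2 of 21 coding neighbours are in the table. As 2386 genes are listed beside 17531 tested, nothing is read from this count.

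The other clearance receptors in the table changed by smaller amounts than Stab2 and Clec4g. Of 26 genes, 4 were called lower (15.4%, beside 8.35% of all tested genes) and 2 higher (7.69%, beside 3%), with a median log2 fold change of -1.24 over the 6 listed, against -1.55 over all listed genes, in the authors' deposited table. Besides Fcgr2b, Scarf1, a scavenger receptor gene of endothelium (-1.30 ± 0.11), and Fcgrt, the neonatal Fc receptor gene (-1.20 ± 0.13), fell in the authors' deposited table. Clec7a, which encodes the beta-glucan receptor Dectin-1 (1.05 ± 0.14), and Colec12, a scavenger receptor gene with a collagen domain (1.12 ± 0.19), rose in the authors' deposited table. Scarf2 was the other lower gene, and the macrophage scavenger receptor genes Msr1, Marco, Cd36 and Cd163 were not listed.

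Of 30 genes of the endocytic machinery, 5 were called lower (16.7%, beside 8.35% of all tested genes), none higher and 25 were not listed. Ehd3, which encodes a membrane recycling ATPase and is also among the 24 sinusoidal markers, fell most (-3.85 ± 0.42) in the authors' deposited table. Epn2, a clathrin adaptor gene (-2.35 ± 0.15), and the caveolar genes Cavin1 (-1.97 ± 0.18), Cav2 (-1.64 ± 0.15) and Cav1 (-1.16 ± 0.22) also fell in the authors' deposited table. The clathrin genes Cltc, Clta and Cltb, the AP-2 adaptor subunits and Dab2, which build the clathrin coat, were not listed. Of 16 endothelial transcription factor genes, 10 were called lower (62.5%, beside the same 8.35%) and none higher. Gata4, which in mouse specifies the sinusoidal type of endothelium, fell 10.1-fold (-3.33 ± 0.21) in the authors' deposited table. Sox17 fell most (-4.11 ± 0.25), Meis2 (-3.44 ± 0.24) and Sox18 (-3.85 ± 0.32) fell by amounts like those of Clec4g, and Ets1 fell least (-1.24 ± 0.11) in the authors' deposited table. Maf, a factor of both sinusoidal endothelium and macrophages, stood at -1.87 ± 0.18 in the authors' deposited table, close to Stab1.

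Mrc1 is also used as a marker of alternatively activated macrophages. Of 17 other genes of that state, 3 were called higher (17.6%, beside 3% of all tested genes), 1 lower (5.88%, beside 8.35%) and 13 were not listed. Ccl22, a chemokine gene (2.05 ± 0.26), the nuclear receptor gene Pparg (1.45 ± 0.17) and Clec7a rose in the authors' deposited table. Arg1, already named beside Mrc1, was the 1 lower gene. Retnla, Chil3 and Cd163 were not listed.

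Markers of further cell types moved in the same comparison, and their part in the receptor results was not tested. Among all tested genes 8.35% were called lower and 3% higher, the shares to set beside the counts that follow. Of 15 stellate cell and fibroblast markers, 9 were called lower, among them Bgn, Lrat, Colec11 and Reln. Of 15 markers of lymphatic and large vessel endothelium, 6 were called lower, with the smallest p for the ephrin gene Efnb2 (-2.01 ± 0.17) and the largest fall for the connexin gene Gja4 (-3.05 ± 0.49) in the authors' deposited table. Recruited monocyte markers had 6 genes higher and 2 lower of 15, with Ms4a4c at 2.52 ± 0.25 and Ccr2 at 1.44 ± 0.20 in the authors' deposited table. The 2 lower genes were Hp (-1.52 ± 0.28) and Fn1 (-1.13 ± 0.27, at a mean count of 64680) in the authors' deposited table. T and NK cell markers had 9 higher of 18 (50.0%), dendritic cell markers 4 higher and 1 lower of 11 (36.4% and 9.09%, the second near the share of all tested genes), and hepatocyte markers 3 higher of 15 (20.0%).

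**Figure D5:**
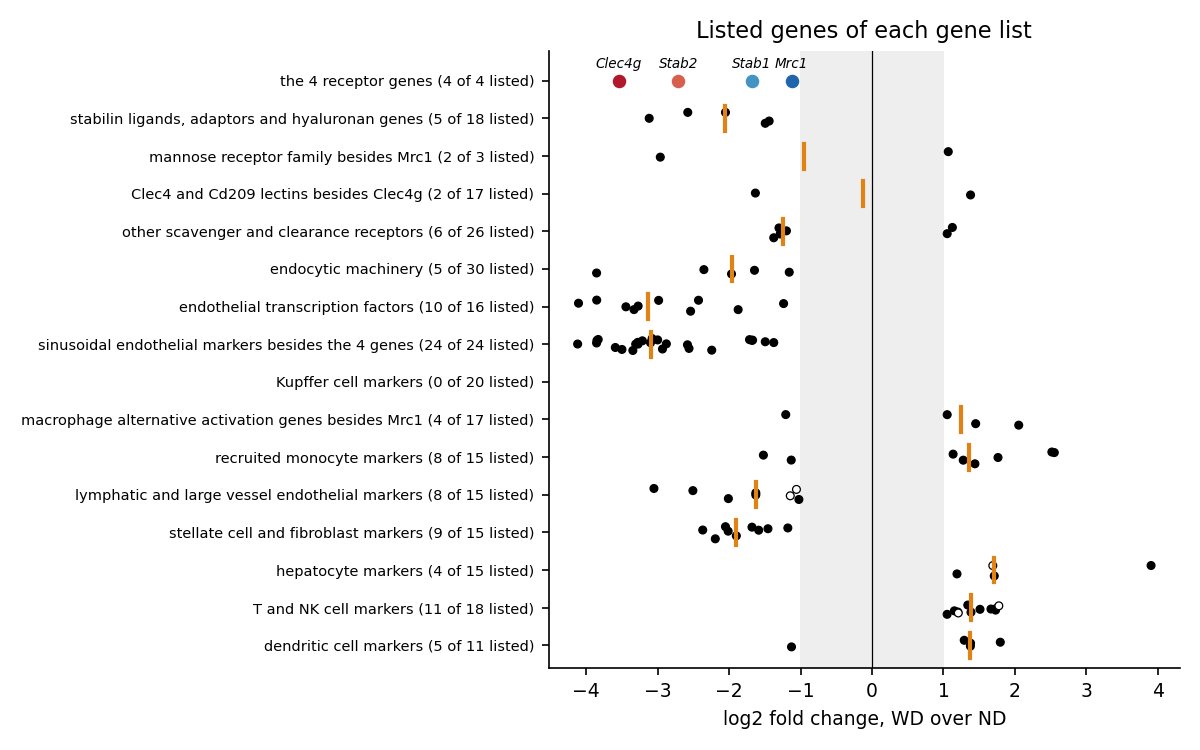
Log2 fold changes, WD over ND, of the 4 receptors (top row) and of the listed genes of each gene list, filled where the adjusted p is below 0.05, with an orange line at the list's median and the unlisted range between -1 and 1 in grey. All 24 sinusoidal markers lie to the left, around a median of -3.09, while monocyte, T and NK cell and hepatocyte markers lie mostly to the right.

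Transcripts from the opposite strand overlap 3 of the receptor genes. No label says whether the libraries kept strand information, so reads of a gene and its antisense partner cannot be told apart. Gm16268, antisense to Stab2 (chr10:86839094-86874954), fell (-3.24 ± 0.53) at a mean count of 18.4 in the authors' deposited table. Gm16270, a transcribed pseudogene within Stab2, fell (-4.10 ± 1.17) at a mean count of 3.84 in the authors' deposited table. Gm16553, antisense to Clec4g (chr8:3709804-3739044), fell (-1.93 ± 0.58) at a mean count of 8.57 in the authors' deposited table. Next to the counts of Stab2 (5758) and Clec4g (4553) these are small. Nt5dc2, which overlaps the end of Stab1 on the opposite strand, was not listed, and neither was Mir511, a microRNA gene within Mrc1 on the same strand. Among coding neighbours within 250 kb, none of 18 around Stab1 and none of 5 around Stab2 was listed. With 2386 genes listed beside 17531 tested, nothing is read from neighbour counts this small. Of 4 around Mrc1, the zinc transporter gene Slc39a12 fell (-1.70 ± 0.38) at a mean count of 19.6 in the authors' deposited table.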

How the data were processed

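RNA was sequenced from liver macrophages of mice on WD or ND, 4 libraries each, grouped by the diet label. Per the labels' protocols, polyadenylated RNA was enriched and random-primed cDNA was sequenced. Tools named in the submitters' processing notes, without roles or versions, include DESeq, edgeR, featureCounts, HISAT2 and STAR; the build is mm10. Per the file headers, the deposited table gives for each gene a signal (the mean normalized count), a log2 fold change of WDV over NDV with its SE, a test score (fold change over SE), a p-value and an adjusted p-value from a model fitted across all genes. The largest listed p was 0.04995 and every change exceeded 1 on the log2 scale. The adjusted p was empty for 77 genes, which were not called.

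With Python 3.11.15 and pandas 2.3.3, the number of tested genes, meaning those that entered the p adjustment, was recovered. It is the integer for which p, times it and over adjusted p, most often gives a whole rank (within 0.02). It was 17531, with 91.0% whole. Genes were called at an adjusted p below 0.05. Intervals are 95% normal intervals from the SE. Group levels and variation between libraries were computed from mean count, fold change and SE with equal size factors. The step was run on simulated counts fitted with their true variation supplied. That run checks the arithmetic only, and cannot show how the figures fare where the variation is estimated. The text names the 4 genes and the 3 called genes nearest in fold change to each. From the 15 lists it names some called members, not in every list those with the smallest p or the extremes. For T and NK cell, dendritic cell and hepatocyte markers it gives counts and shares and names no gene as a marker. Members, lists, motifs and tests were chosen with earlier results of these data known. Other limits on p, fold and count were tried.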

Additional observations from a re-analysis of the deposited data

How the results depend on the processing

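The 4 receptor genes were picked with their p-values known, so other limits on p say nothing about their stability. With the 95% interval required to lie wholly beyond 2-fold, Clec4g, Stab2 and Stab1 stayed and Mrc1 (-1.12) did not. The difference between Stab1 and Mrc1 (-0.56) had an interval excluding 0 with independent errors (SE 0.21) and not with summed SEs (SE 0.30); the other 5 differences kept their side. Of the 1464 genes called lower, 968 stayed under Bonferroni, 949 with the interval beyond 2-fold and 606 at a mean count of at least 100. Of the 526 called higher, 219, 114 and 190 stayed in the same order. Of 27 distinct list genes called higher, 10 stayed with the interval beyond 2-fold. List counts (30, higher and lower for each of 15 lists) moved by over 1.5 times in 12 cases with that interval, 5 under Bonferroni, 3 at the count minimum, 1 at an adjusted p below 0.01 and 0 at the unadjusted p. With mean counts within 1.5-fold, 0 of the 3 genes nearest Mrc1 were shared, 2 for Stab1, 3 for Stab2 and 2 for Clec4g. The length used per kilobase, an alternative added after seeing the data, gave 1849 with merged exons against 3666 with the longest coding transcript for Clec4g, 1309 against 1552 for Mrc1, 653 against 840 for Stab1 and 657 against 700 for Stab2. No library could be left out and no other normalization or count model run, since the table has no value per library. No paired analysis was possible because the table carries no replicate.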
